A study of Homo sapiens with 27 samples.

Results

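MM134 LTED-A cells were compared directly with MM134 LTED-B cells, a pair of estrogen-independent sublines of the same breast cancer line. MDA-MB-134VI (MM134) is an established estrogen receptor-positive line of invasive lobular carcinoma, and LTED stands for long-term estrogen deprivation. Each LTED variant was obtained by keeping parental MM134 cells for months in IMEM with charcoal-stripped serum, which lacks steroid hormones, until growing cells emerged. The comparison used the 6 libraries labelled as LTED-A replicates 1 to 3 and LTED-B replicates 1 to 3, out of 27 libraries in the series. The 3 libraries of parental cells, which had been hormone-deprived for days before collection, and those of the LTED-D and LTED-E variants entered the same fit and give the context for single genes. Each variant is 1 line, and its 3 libraries came from wells of 6-well plates. The p-values therefore measure the spread between wells and not between independent rounds of deprivation.

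The estrogen receptor is a nuclear receptor that, once bound by hormone, switches on growth and secretory genes of the luminal breast epithelium. Cells deprived of estrogen for long periods can resume growth by several routes, among them a receptor that is active without hormone, growth factor receptors, and altered lipid and sterol metabolism. Sublines selected in parallel from the same parent need not take the same route, and the question here was in which genes LTED-A and LTED-B differ from each other.

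The 6 libraries held between 42051154 and 101378762 estimated read counts assigned to genes, and the deepest was LTED-A replicate 1. Levels are given as normalized CPM (read counts scaled to a common library size), which are not divided by gene length and are therefore compared only between samples and not between genes. A gene was called differentially expressed (DE) at a fold change above 1.5 with an adjusted p below 0.001 (edgeR quasi-likelihood test, Benjamini-Hochberg adjustment over 26061 genes). Log2 fold changes are LTED-A minus LTED-B, so that positive values are higher in LTED-A.

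A total of 1839 genes were DE between LTED-A and LTED-B, which is 7.06% of the genes tested. Of these, 1058 were higher in LTED-A (4.06%) and 781 were higher in LTED-B (3.00%). These shares of all genes tested are the background for the counts of the gene lists below. The lists hold mostly protein-coding genes, which were called more often than all genes tested, so that this background is low for them. The changes reached further on the LTED-A side: 253 genes were over 4-fold and 50 over 16-fold higher in LTED-A, against 92 and 16 in LTED-B. Of 15440 protein-coding genes tested, 880 were higher in LTED-A and 608 in LTED-B, and of 5918 long noncoding RNAs 113 and 89. The median log2 fold change over all genes tested was -0.02. In bulk libraries, fewer cells expressing a gene and less RNA per cell cannot be told apart.

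**Figure D1:**
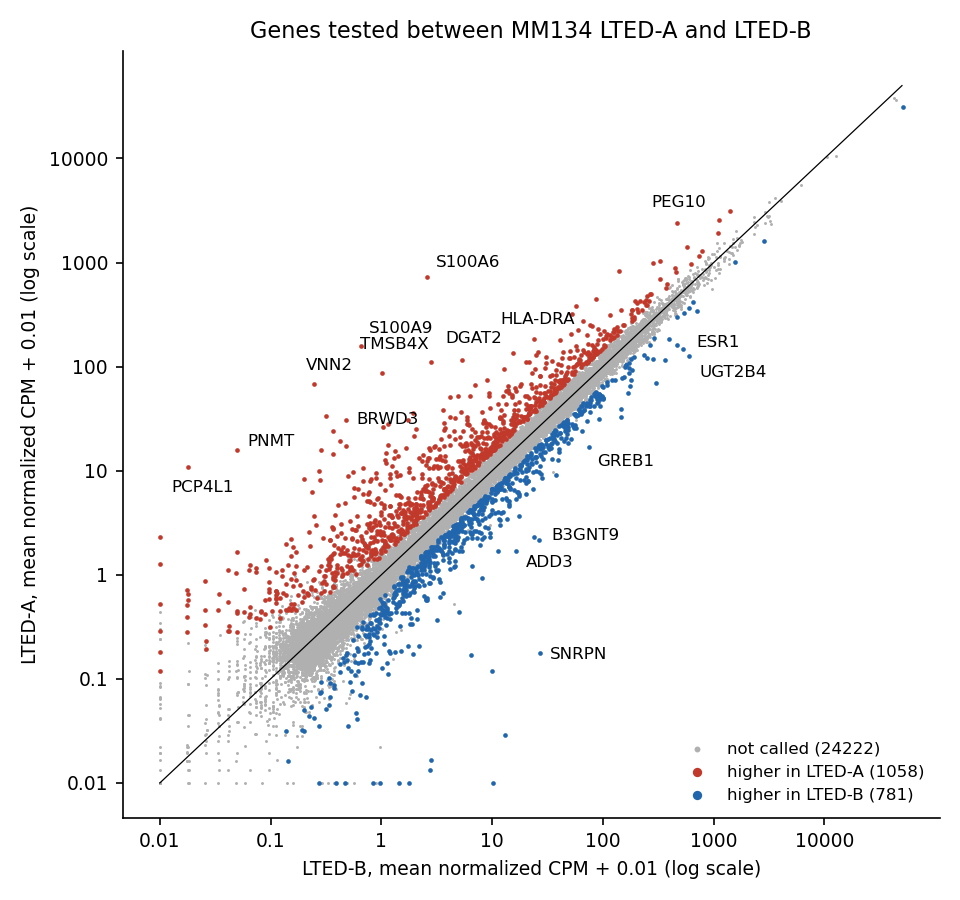
Mean normalized CPM of each gene tested in LTED-B (x axis) and LTED-A (y axis), both on log scales, means of 3 libraries per variant. Red points are the 1058 genes higher in LTED-A, blue points the 781 genes higher in LTED-B, grey points genes that were not called, and the line marks equal levels.

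The libraries of each variant lay close together. On the 1000 most variable genes of the MM134 libraries, the Euclidean distance on log2(CPM + 1) was 5.63 to 9.03 within LTED-A, 6.68 to 13.6 within LTED-B, and a median of 40.9 between them (at most 41.6). LTED-A lay at a median of 37.9 from LTED-E and 46.2 from LTED-D, while LTED-B lay at 45.8 from LTED-E and 38.3 from LTED-D. Parental cells were farther away, at 74.1 from LTED-A and 59.9 from LTED-B. The luminal markers KRT8, KRT18, KRT19, EPCAM, FOXA1 and GATA3 were present in both variants. Of 12 immune cell markers, 5 were at or below 3 counts in all 6 libraries, among them CD3D, CD3E, FCGR3A and MS4A1, and the summed level of the 12 was 19.7 to 31.4 CPM in LTED-A, against 13.7 to 17.8 CPM in LTED-B. The summed level of 12 stromal and endothelial markers was 19.8 to 21.1 CPM in LTED-A, against 17.9 to 18.8 CPM in LTED-B, with LUM at or below 3 counts throughout. Of the 4 immune markers tested, 1 was higher in LTED-A (median 0.54), and of the 10 stromal markers tested, 1 was higher in each variant (median -0.13). CD68, a lysosomal protein of macrophages also made by other cells, was higher in LTED-A (14.2 against 6.77 CPM), as was PECAM1 (4.59 against 1.18 CPM), while VWF was higher in LTED-B (0.592 against 0.187 CPM). The VWF call was lost without either of LTED-A replicates 1 and 2 or LTED-B replicates 1 and 2 (adjusted p = 0.00733, 0.00335, 0.00587 and 0.00163) and in a fit of LTED-A and LTED-B alone (adjusted p = 0.00152). The 3 most abundant RNAs took 9.81 to 11.5% of counts in LTED-A, against 12.6 to 13.7% in LTED-B. They include 7SK, a small nuclear RNA, which was lower in LTED-A (31294 against 50790 CPM, log2 fold change -0.70 with SE 0.07). The part of these markers and RNAs in the results was not tested.

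The estrogen receptor gene itself was higher in LTED-B. ESR1 (ENSG00000091831, chr6:151656691-152129619, plus strand, hg38) was at 146, 152 and 148 CPM in the LTED-A libraries and at 516, 549 and 533 CPM in the LTED-B libraries. The LTED-A mean was 149 ± 2.99 CPM against 533 ± 16.2 CPM in LTED-B (SD, n = 3 each), a log2 fold change of -1.84 (SE 0.03, adjusted p = 1.56e-18). Parental cells stood between them at 360 CPM: against these, LTED-A was lower (log2 fold change -1.27, adjusted p = 3.37e-17), and the LTED-B value of 0.57 (adjusted p = 5.76e-12) was under the fold minimum. The other variants were at 467 CPM (LTED-D) and 265 CPM (LTED-E). CCDC170, a coiled-coil protein gene that lies just before ESR1 on the same strand (chr6:151494017-151621193), was at 9.29, 9.25 and 8.69 CPM in LTED-A, against 36.4, 38.2 and 39.1 CPM in LTED-B (log2 fold change -2.06, SE 0.04).

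GREB1, an estrogen receptor cofactor that the receptor induces, was at 16.3, 16.3 and 17.9 CPM in LTED-A, against 72.7, 77.6 and 75.2 CPM in LTED-B. Its log2 fold change was -2.16 (SE 0.04, adjusted p = 2.50e-17), and the parental mean of 69.8 CPM was near that of LTED-B. Of the 20 estrogen receptor and estrogen-induced genes, all of which were tested, 6 were higher in LTED-B and 0 in LTED-A, with a list median of -0.11. Beside ESR1 and GREB1 these were the transcription factor MYB (-0.71), the secreted glycoprotein STC2 (-0.71), the receptor tyrosine kinase RET (-0.67) and the carbonic anhydrase CA12 (-0.65). The secreted trefoil peptides, classical targets of the receptor, were not DE. TFF1 was at 564, 579 and 619 CPM in LTED-A, against 540, 585 and 569 CPM in LTED-B (log2 fold change 0.06, adjusted p = 0.292), and TFF3 had means of 2451 and 2303 CPM (0.09, adjusted p = 0.125). TFF1 was at 4.28 CPM in parental cells, so that both variants were far above the parent. The progesterone receptor gene PGR was barely expressed, at 0.146 to 0.184 CPM in LTED-A, against 0.441 to 0.715 CPM in LTED-B. Its adjusted p of 0.00461 missed the threshold and fell to 1.33e-04 with DESeq2 and 5.09e-04 in a fit of LTED-A and LTED-B alone.

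SCUBE2, a secreted and membrane-bound protein commonly high in estrogen receptor-positive tumours, also ranked high on the LTED-B side. It was at 68.2, 68.5 and 71.2 CPM in LTED-A, against 289, 310 and 303 CPM in LTED-B (log2 fold change -2.12, SE 0.04). LTED-D had a similar level to LTED-B (290 CPM), and LTED-E had the least (28.5 CPM).

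Among 15 luminal transcription factors, 3 were higher in LTED-A and 1 in LTED-B (median 0.07), against 4.06% and 3.00% of all genes tested. The epithelial ETS factors EHF (182 ± 4.53 against 90.8 ± 4.42 CPM) and ELF3 (48.0 ± 1.35 against 26.1 ± 0.388 CPM) and the orphan receptor ESRRG (3.09 ± 0.0124 against 1.57 ± 0.475 CPM) were higher in LTED-A. GATA3, which works with the estrogen receptor at its enhancers, was at 104 ± 7.09 CPM in LTED-A, against 161 ± 6.01 CPM in LTED-B (log2 fold change -0.63). Without LTED-A replicate 1 it was -0.57, under the fold minimum. The pioneer factor FOXA1 (389 against 433 CPM, log2 fold change -0.16) was not DE.

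Several growth factor receptors and their feedback genes were DE. Of 15 FGF receptor and feedback genes, 5 were higher in LTED-A and 0 in LTED-B (median 0.36). FGFR4 was at 675, 692 and 733 CPM in LTED-A, against 323, 338 and 318 CPM in LTED-B (log2 fold change 1.10, SE 0.03, adjusted p = 1.21e-14), with 159 CPM in parental cells. Of the genes that FGF and ERK signalling induce as feedback, 4 were higher in LTED-A: ETV5, an ETS factor, at 17.3 against 5.36 CPM (1.69), the inhibitors SPRY1 (1.29) and SPRY4 (0.90), and the ERK phosphatase DUSP6 (0.66). FGFR1, which is abundant in this line, was at 1288 ± 54.9 CPM in LTED-A, against 1078 ± 20.3 CPM in LTED-B, a log2 fold change of 0.26 that was under the fold minimum. FGFR3 was at 5.03 against 7.23 CPM (-0.52) and FGFR2 at 0.854 against 0.868 CPM, neither of them DE, although FGFR3 passed at -0.59 without LTED-B replicate 3.

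Of 13 ERBB and IGF genes tested, 4 were higher in LTED-B and 1 in LTED-A (median -0.24). The insulin-like growth factor receptor gene IGF1R was at 52.2 ± 1.54 CPM in LTED-A, against 84.4 ± 3.69 CPM in LTED-B (-0.70), and the binding protein IGFBP2 at 27.4 ± 1.46 and 56.2 ± 2.65 CPM (-1.04). ERBB2 was at 10.7, 9.71 and 11.2 CPM in LTED-A, against 16.8, 16 and 15.7 CPM in LTED-B (-0.61), and without LTED-A replicate 2 its value of -0.57 was under the fold minimum. IGFBP5, at 0.251 against 1.05 CPM, lost its call without LTED-B replicate 1 (adjusted p = 0.00218) and in a fit of both variants alone (adjusted p = 0.00206). IGFBP3, which binds and limits IGFs, was the member higher in LTED-A, at 41.7 against 22.1 CPM (0.92).

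Large differences lay in the S100 family, small calcium-binding proteins of epithelia and myeloid cells that are encoded side by side on chromosome 1. S100A6 (chr1:153534599-153536244, minus strand) was at 720, 716 and 724 CPM in LTED-A, against 2.90, 2.28 and 2.64 CPM in LTED-B, a log2 fold change of 8.11 (SE 0.05, adjusted p = 5.50e-24). LTED-B was also far below the parental cells (58.3 CPM), LTED-D (256 CPM) and LTED-E (534 CPM). S100A9 was at 159, 159 and 155 CPM against 0.650, 0.446 and 0.838 CPM (7.93, SE 0.10), and its partner in the calprotectin dimer, S100A8, was at 90.7, 86.3 and 85.7 CPM against 0.998, 1.10 and 0.936 CPM (6.43, SE 0.08). Parental cells had next to none of this pair, at 0.0367 and 0.336 CPM. S100A14, at 449 ± 18.4 against 86.0 ± 3.83 CPM (2.38), and S100A16, at 273 ± 5.55 against 66.0 ± 1.04 CPM (2.05), were also higher in LTED-A, and both were below 1 CPM in parental cells (0.193 and 0.342 CPM).

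Of the 22 S100, annexin and plastin genes, 11 were higher in LTED-A and 1 in LTED-B (median 0.47). S100P, encoded on another chromosome, was at 16.4 against 2.67 CPM (2.62), and ANXA1, an annexin that dampens inflammation, at 10.5 against 2.89 CPM (1.87). ANXA3 was the member higher in LTED-B, at 0.981 against 0.478 CPM (-1.02), and its adjusted p missed the threshold without LTED-A replicate 2 (0.00142), LTED-A replicate 3 (0.00112) or LTED-B replicate 1 (0.00265). The actin-bundling plastin PLS3, at 0.0600 CPM in parental cells, had reached 160 ± 4.46 CPM in LTED-A, against 126 ± 4.05 CPM in LTED-B, a difference of 0.34 that was under the fold minimum. ANXA2 and S100A10, which form a complex, had log2 fold changes of -0.14 and -0.04.

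The region around S100A6 was examined after these values had been seen. Of 34 genes tested within 500 kb of it, 11 were DE, all of them higher in LTED-A, and they filled the block from PGLYRP4 and S100A9 through S100A13. S100A13 was near the fold minimum at 0.60, and fell under it at 0.58 without LTED-A replicate 3 and at 0.57 without LTED-B replicate 2. The S100A2 call (1.73) was lost without LTED-A replicate 1 or 3 or LTED-B replicate 1 or 3 (adjusted p = 0.00525, 0.00130, 0.00385 and 0.00370). The genes beyond S100A13 were not DE, among them S100A1 (-0.34), CHTOP (-0.03), ILF2 (0.00) and INTS3 (0.01). Of these genes, SLC39A1 was at 159 against 113 CPM (0.49, adjusted p = 2.23e-11) and missed the call by the fold minimum. The lncRNA ENSG00000238279 overlaps S100A6 on the other strand and had 0 counts in LTED-B against 1.26 CPM in LTED-A, at least 17.7-fold higher. S100A7 has near-identical neighbours, so that its split of reads is uncertain.

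**Figure D2:**
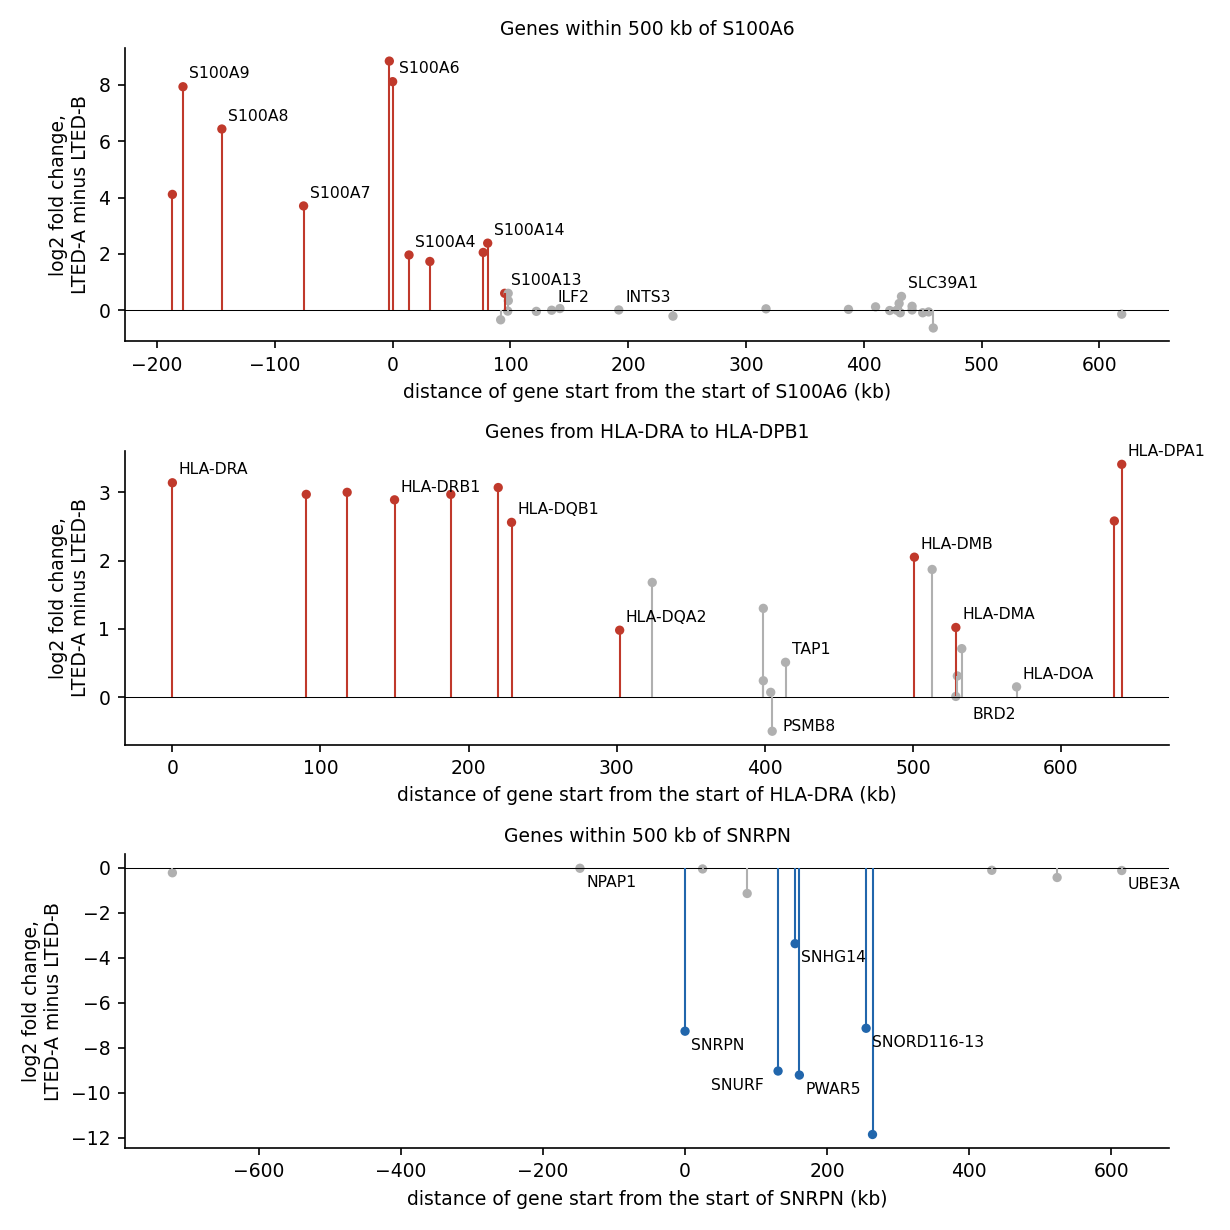
Log2 fold change of each gene tested (LTED-A minus LTED-B, y axis) by distance of its start from that of a reference gene in kb (x axis), in 3 regions. Red and blue points are DE genes and grey points are not. The 11 DE genes around S100A6 and the 12 from HLA-DRA to HLA-DPB1 were higher in LTED-A, and the 6 around SNRPN were higher in LTED-B.

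Several genes were close to silent in LTED-B and clearly expressed in LTED-A. VNN2, a pantetheinase anchored at the cell surface (chr6:132743870-132763459), was at 69.3, 67.3 and 67.2 CPM in LTED-A, against 0.302, 0.188 and 0.222 CPM in LTED-B (log2 fold change 8.14, SE 0.09). Its neighbour SLC18B1, a polyamine transporter gene (chr6:132769370-132813339), was at 24.0 ± 0.385 against 0.356 ± 0.0167 CPM (6.06), and VNN3P in the same stretch was higher in LTED-A too (2.54). LTED-E shared the high level of VNN2 (103 CPM), and parental cells (0.0178 CPM) and LTED-D (0.969 CPM) did not. PNMT, the enzyme that turns noradrenaline into adrenaline, is encoded near ERBB2 (chr17:39667981-39670475). It was at 15.3, 15 and 16.8 CPM in LTED-A and never above 2 counts in LTED-B, which makes it at least 220-fold higher in LTED-A. Parental cells, LTED-D and LTED-E also expressed PNMT, at 7.47, 12.8 and 4.87 CPM. PCP4L1, a paralogue of the Purkinje cell protein PCP4, was at 10.4, 11.4 and 10.7 CPM in LTED-A with 0, 1 and 0 counts in LTED-B, at least 152-fold higher. C1orf127 was at 19.4 ± 0.545 against 0.414 ± 0.130 CPM (5.55), and was below 2 CPM in parental cells, LTED-D and LTED-E (1.74, 0.700 and 0.313 CPM).

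Like PNMT, other genes were expressed in parental cells and were lowest in LTED-B of the 5 MM134 groups. BRWD3, a bromodomain and WD-repeat protein gene on chromosome X (chrX:80669503-80809877), was at 31.1, 31.3 and 29.2 CPM in LTED-A, against 0.627, 0.422 and 0.370 CPM in LTED-B (6.00, SE 0.09). Parental cells, LTED-D and LTED-E had 47.8, 28.2 and 29.4 CPM. TNFRSF14, the receptor also known as HVEM, was at 15.7, 15.8 and 15.8 CPM against 0.348, 0.164 and 0.320 CPM (5.82, SE 0.12), with 13.9, 13.8 and 9.30 CPM in the other 3 groups. TMSB4X, which encodes the actin monomer-binding thymosin beta 4 (chrX:12975110-12977227), was at 113, 110 and 113 CPM against 3.44, 2.18 and 2.76 CPM (5.32, SE 0.08), with 328, 97.2 and 25.8 CPM in the other 3 groups. TMSB4X has near-identical copies in the genome, so that its counts are less certain. Against parental cells, LTED-B was lower by -6.64 for BRWD3, -5.63 for TNFRSF14 and -6.87 for TMSB4X on the log2 scale, and LTED-A differed by -0.64, 0.19 and -1.55.

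On the LTED-B side the outstanding region was the imprinted SNRPN locus of chromosome 15, where the paternal copy is normally the expressed one. SNRPN, a small nuclear ribonucleoprotein subunit gene (chr15:24823637-24978723, plus strand), was at 0.189, 0.110 and 0.201 CPM in LTED-A, against 27.8, 26.3 and 26.6 CPM in LTED-B (log2 fold change -7.27, SE 0.13, adjusted p = 6.55e-18). The 3 other groups were as low as LTED-A: parental cells had 0.144, LTED-D 0.133 and LTED-E 0.195 CPM. LTED-B was thus the only MM134 group of the 5 in which SNRPN exceeded 1 CPM. Of 13 genes tested within 500 kb, 6 were DE, all higher in LTED-B. SNURF, which shares transcripts with SNRPN, had 0 counts in LTED-A, against 1.43 CPM in LTED-B, at least 30.6-fold higher. PWAR5 (13 CPM in LTED-B) was at least 279-fold higher, ENSG00000261069 (10.1 CPM) at least 217-fold and SNORD116-13 (0.381 CPM) at least 8.18-fold. The long host transcript SNHG14 was at 2.31 CPM in LTED-A, against 24.1 CPM in LTED-B (-3.38, SE 0.11). These genes overlap on the same strand, so the split of reads among them is uncertain. UBE3A, on the opposite strand at the far end of SNHG14, had a log2 fold change of -0.13, and NPAP1 before SNRPN one of -0.03. This region too was picked after the values had been seen.

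Another imprinted gene stood out on the LTED-A side. PEG10, a retrotransposon-derived gene (chr7:94656325-94669695), was at 2382, 2378 and 2391 CPM in LTED-A, against 446, 459 and 488 CPM in LTED-B (2.36, SE 0.04), and the parental (495 CPM) and LTED-E (487 CPM) levels were near that of LTED-B. LTED-D was also high (1612 CPM). SGCE, which starts next to PEG10 on the opposite strand, had a log2 fold change of 0.60 and was DE, although it fell under the fold minimum at 0.56 without LTED-B replicate 2, and CASD1 beyond it one of -0.24.

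**Figure D3:**
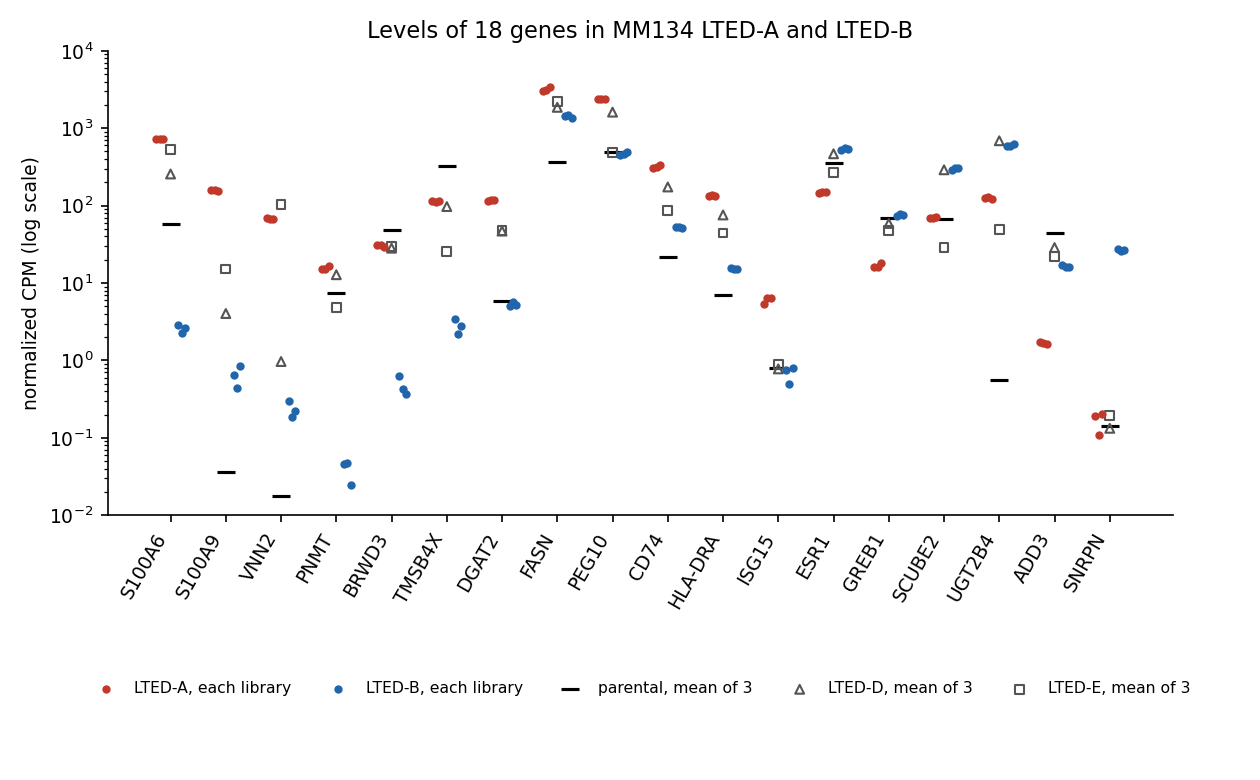
Normalized CPM (y axis, log scale) of 18 genes in each LTED-A library (red points) and LTED-B library (blue points), with the means of parental cells (black bars), LTED-D (triangles) and LTED-E (squares). The genes were chosen among DE genes. Of those, 1058 of 1058 higher in LTED-A and 780 of 781 higher in LTED-B had no overlap between the variants, so separation follows from the choice.

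Further genes were also higher in LTED-B. ADD3, a membrane-skeleton protein, was at 1.74, 1.69 and 1.63 CPM in LTED-A, against 17.1, 16 and 16 CPM in LTED-B (-3.27, SE 0.05), with 44.2 CPM in parental cells, 28.7 in LTED-D and 22.1 in LTED-E. B3GNT9, a glycosyltransferase, was at 2.15 ± 0.280 against 26.3 ± 1.51 CPM (-3.61). ELOVL2, which elongates polyunsaturated fatty acids, was at 1.70 ± 0.157 against 11.2 ± 1.24 CPM (-2.70). The glypican GPC3 was at 32.6 ± 0.777 against 145 ± 3.47 CPM (-2.15), the sulfotransferase SULT1C4 at 3.66 ± 0.355 against 17.5 ± 1.07 CPM (-2.24), the activin subunit INHBB at 3.00 ± 0.204 against 11.8 ± 0.207 CPM (-1.98), and the monoamine oxidase MAOA at 3.46 ± 0.241 against 13.5 ± 1.03 CPM (-1.97). By difference in CPM, the cotransporter SLC12A2 (1623 against 2864 CPM), the small GTPase RHOB (1005 against 1574 CPM), the glucose transporter SLC2A1 and the linker histone H1-5 (162 against 464 CPM) also ranked among the leading genes.

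Of the MHC class II genes 11 of 15, and of the interferon-stimulated genes 17 of 37, were higher in LTED-A, and promoters of both groups carry well-known motifs. Class II genes are driven by the coactivator CIITA through a set of boxes that includes the CCAAT-type Y box. Interferon-stimulated genes are driven by STAT and IRF factors through the interferon-stimulated response element. Windows of RefSeq (GRCh38.p14, from 250 bases before to 50 after the start) are shown for 4 genes, 5′ to 3′ along the gene. The genes are ISG15 and IFI44, the list members with the largest interferon differences, MX1, an interferon-stimulated gene that was not DE, and CD74 for class II. For each gene the first window that held its motif was taken, so that the capitals follow from the choice. Capitals mark the motif TTTCNNTTT (either strand, overlaps merged) in the first 3 and ATTGG (either strand) in the last.
ISG15, chr1:1013247-1013546, plus strand: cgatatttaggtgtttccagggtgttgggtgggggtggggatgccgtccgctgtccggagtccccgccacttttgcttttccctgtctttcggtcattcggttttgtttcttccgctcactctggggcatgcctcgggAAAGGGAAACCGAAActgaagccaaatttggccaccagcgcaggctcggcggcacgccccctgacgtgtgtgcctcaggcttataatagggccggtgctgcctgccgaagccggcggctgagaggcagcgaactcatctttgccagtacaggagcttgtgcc
IFI44, chr1:78649539-78649838, plus strand: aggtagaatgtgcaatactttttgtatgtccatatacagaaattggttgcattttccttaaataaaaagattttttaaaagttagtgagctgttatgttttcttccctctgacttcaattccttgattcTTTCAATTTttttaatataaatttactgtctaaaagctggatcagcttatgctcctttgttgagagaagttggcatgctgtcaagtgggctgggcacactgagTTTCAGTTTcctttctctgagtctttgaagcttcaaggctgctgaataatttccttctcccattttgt
MX1, chr21:41420308-41420607, plus strand: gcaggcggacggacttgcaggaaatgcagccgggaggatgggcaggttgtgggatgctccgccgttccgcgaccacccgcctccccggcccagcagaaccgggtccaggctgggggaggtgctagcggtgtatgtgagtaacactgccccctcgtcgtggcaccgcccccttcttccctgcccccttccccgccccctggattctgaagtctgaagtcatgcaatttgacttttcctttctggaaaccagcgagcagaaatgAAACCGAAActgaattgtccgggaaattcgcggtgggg
CD74, chr5:150412861-150413160, minus strand: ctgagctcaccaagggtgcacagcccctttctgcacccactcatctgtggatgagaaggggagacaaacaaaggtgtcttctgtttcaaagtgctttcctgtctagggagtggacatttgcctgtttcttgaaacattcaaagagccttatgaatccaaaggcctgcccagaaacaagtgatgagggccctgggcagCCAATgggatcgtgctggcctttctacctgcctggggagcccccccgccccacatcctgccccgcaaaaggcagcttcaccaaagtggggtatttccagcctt
Of 31 interferon-stimulated genes with a window, 25 held TTTCNNTTT (80.6%), against 12.6% of all 27305 genes with a window. A gene with several windows was counted if any of them held the motif. It was present in 13 of 15 genes higher in LTED-A (86.7%) and in 10 of 14 that were tested and not DE (71.4%). ATTGG was present in 10 of 13 class II list genes with a window (76.9%), against 39.7% of all genes with a window, and in 8 of the 9 that were higher in LTED-A. These are matches of letters and not measured binding sites.

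MHC class II molecules present peptides to helper T cells and are made mainly by antigen-presenting cells, although epithelial cells can also make them. All 15 members of the list were tested, 11 were higher in LTED-A and 0 in LTED-B, and the list median was 2.56 against -0.02 over all genes. CIITA was at 17.9, 18.5 and 18.3 CPM in LTED-A, against 6.22, 5.75 and 5.42 CPM in LTED-B (1.65, SE 0.06, adjusted p = 4.12e-14). CD74, the invariant chain that chaperones class II molecules, was at 303, 315 and 336 CPM against 52.2, 53.5 and 51.8 CPM (2.60, SE 0.04). HLA-DRA was at 134, 136 and 135 CPM against 15.7, 15.3 and 15 CPM (3.14, SE 0.04, adjusted p = 2.99e-20), with 6.92 CPM in parental cells, 75.7 in LTED-D and 44.3 in LTED-E.

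The other DR, DP and DQ chains on the list had log2 fold changes from 2.56 in HLA-DQB1 to 3.41 in HLA-DPA1 (38.4 against 3.60 CPM). Outside the list, HLA-DQA2 was higher in LTED-A by less (31.0 against 15.7 CPM, 0.98), and HLA-DQB2 was not DE (0.457 against 0.143 CPM, 1.68, adjusted p = 0.00182). The peptide-loading chains HLA-DMA (69.4 against 34.2 CPM, 1.02) and HLA-DMB (21 against 5.07 CPM, 2.05) were higher as well. The 4 members that were not DE were HLA-DOA (0.15) and the DNA-binding RFX subunits RFX5 (-0.17), RFXANK (0.01) and RFXAP (0.55). CIITA in LTED-B was near the parental level (5.80 against 5.94 CPM, log2 fold change -0.03). HLA-DRA (1.14) and CD74 (1.28) were above the parent in LTED-B. The part of CIITA in these differences was not tested. Of 12 immune cell markers, 5 were at or below 3 counts in these libraries, with CD3D and CD3E at 0, but CD68 was higher in LTED-A (14.2 against 6.77 CPM) and their summed level was 19.7 to 31.4 CPM in LTED-A, against 13.7 to 17.8 CPM in LTED-B. The part of these markers in the class II result was not tested. The HLA genes are polymorphic and alike, so that their split of reads is uncertain.

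Along chromosome 6, 12 of the 23 genes tested from HLA-DRA to HLA-DPB1 were higher in LTED-A and 0 in LTED-B. Genes of other function in the same stretch were not DE, such as TAP1 (0.51), TAP2 (0.24), PSMB8 (-0.50), PSMB9 (0.07) and BRD2 (0.01). Of 17 class I and peptide-loading genes, 2 were higher in LTED-A and 0 in LTED-B (median 0.13), against 4.06% and 3.00% of all genes tested. These were B2M, the light chain of class I, at 625 ± 11.5 against 376 ± 1.15 CPM (0.73), and HLA-E, at 55.4 ± 1.24 against 36.7 ± 0.733 CPM (0.60). HLA-E fell under the fold minimum at 0.58 without LTED-A replicate 2, LTED-B replicate 1 or LTED-B replicate 2. HLA-C was not DE (39.3 against 36.9 CPM, 0.09).

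Interferon-stimulated genes are the antiviral effectors and sensors that interferons switch on. Of 37 tested, 17 were higher in LTED-A and 1 in LTED-B (median 0.48, or 0.30 without LTED-A replicate 1 and 0.32 without LTED-B replicate 3), and CXCL10 was at or below 3 counts in all 6 libraries. ISG15, a ubiquitin-like protein, was at 5.33, 6.33 and 6.33 CPM in LTED-A, against 0.743, 0.493 and 0.788 CPM in LTED-B (3.14, SE 0.16, adjusted p = 1.67e-11). IFI44 was at 1.47, 1.56 and 1.5 CPM against 0.163, 0.0938 and 0.172 CPM (3.38, SE 0.30). The levels of both were modest, and LTED-A was the highest of the 5 groups for each, the others reaching at most 0.889 and 0.143 CPM. RSAD2 (2.74), OAS1 (2.66), IFIT3 (2.31), IFIT2 (1.87) and OASL (1.86) followed, and the membrane protein BST2 was at 162 ± 6.33 against 80.5 ± 7.41 CPM (1.01).

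Not all of the list moved. MX1, another antiviral effector, was at 4.87, 4.49 and 4.43 CPM in LTED-A, against 4.04, 4.32 and 3.28 CPM in LTED-B (0.25, adjusted p = 0.0524). Of the factors that form the interferon-activated complex ISGF3, IRF9 was higher in LTED-A (20.5 ± 0.609 against 11.2 ± 0.639 CPM, 0.87), while STAT2 (78.8 against 75.4 CPM, 0.06) was not DE. IRF1 was at 6.42 against 5.61 CPM (0.20, adjusted p = 0.110). OAS3 went the other way, at 3.41 ± 0.416 CPM in LTED-A, against 6.53 ± 0.204 CPM in LTED-B (-0.94), and was highest in LTED-D at 44.9 CPM.

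**Figure D4:**
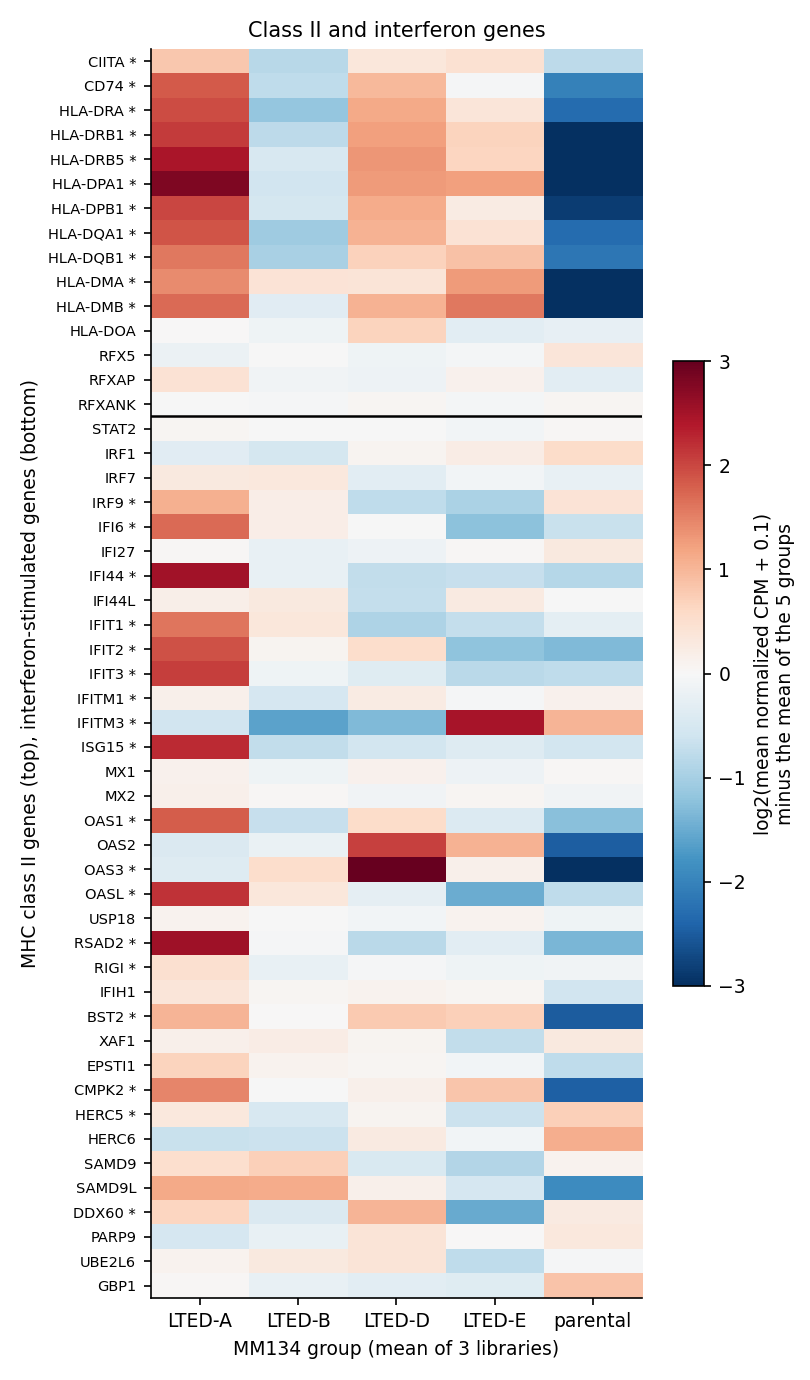
Mean levels of the MHC class II genes (top) and of most interferon-stimulated genes tested (bottom) in the 5 MM134 groups, 3 libraries each, as log2(mean normalized CPM + 0.1) minus the mean of the groups (colour scale, capped at 3). Asterisks mark genes DE between LTED-A and LTED-B; 11 of 15 class II genes and 17 interferon-stimulated genes were higher in LTED-A.

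Secretory and acute-phase proteins formed the list with the second highest median, 1.5. Of 21 tested, 14 were higher in LTED-A, 3 were higher in LTED-B and 4 were not DE. The serum amyloid gene SAA1 was at 27.5, 28.3 and 28.3 CPM against 1.04, 0.962 and 1.43 CPM (4.61, SE 0.12), and its near-identical neighbour SAA2 at 10.6 against 0.680 CPM (3.96). AGR2, a protein disulfide isomerase of secretory epithelia, was at 1024, 998 and 971 CPM against 271, 294 and 283 CPM (1.82, SE 0.04), from a parental level of 3.17 CPM. Complement C3 (52.7 against 9.29 CPM, 2.50), complement factor B (CFB, 1.98), lysozyme (LYZ, 2.45), lipocalin (LCN2, 2.56) and ORM1 (2.62) were higher in LTED-A. So were the apocrine genes AZGP1 (1396 ± 63.3 against 573 ± 19.8 CPM), MUCL1 (1.5), PIP (1.28) and APOD (2.21). The 3 members higher in LTED-B were the serpins SERPINA1 (9.32 ± 0.169 against 27.9 ± 1.00 CPM, -1.58) and SERPINA3 (-0.92), which inhibit proteases, and albumin (ALB, -1.27). AMBP, a plasma protein precursor outside the list, was at 1868, 1902 and 2040 CPM against 1070, 1117 and 1117 CPM (0.81), from 9.39 CPM in parental cells.

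Some genes of fatty acid synthesis and lipid storage were higher in LTED-A. Of 23 genes, 5 were higher in LTED-A and 1 in LTED-B (median 0.18). FASN, which builds palmitate, was at 2989, 3086 and 3381 CPM in LTED-A, against 1417, 1459 and 1342 CPM in LTED-B (1.16, SE 0.05), and the desaturase SCD at 2463, 2606 and 2606 CPM against 1102, 1144 and 1132 CPM (1.18, SE 0.03). Both variants were above the parental 363 CPM for FASN and 468 CPM for SCD. DGAT2, which makes triglyceride, was at 114, 117 and 118 CPM against 4.99, 5.72 and 5.25 CPM (4.45, SE 0.04), and LTED-B was near the parental level (5.86 CPM, log2 fold change -0.14). ME1, the malic enzyme that supplies NADPH, was at 8.35 ± 0.295 against 0.191 ± 0.0650 CPM (5.44). The lipid droplet coat gene PLIN2 was at 3.82 against 1.98 CPM (0.94). The first steps, ACLY (0.37) and ACACA (0.12), were not DE. The paralogous desaturase SCD5 was higher in LTED-B, at 45.5 against 25.7 CPM (-0.82).

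Of 21 cholesterol synthesis genes, 1 was higher in LTED-A and 0 in LTED-B (median 0.10), against 4.06% and 3.00% of all genes tested. The 1 gene was SQLE, which makes squalene epoxide, at 358 ± 8.87 against 202 ± 2.25 CPM (0.83). HMGCS1, which makes the precursor HMG-CoA, was at 196 against 152 CPM (0.36) and DHCR7, a late step, at 50.9 against 34.1 CPM (0.58), neither of them past the fold minimum with all libraries, although DHCR7 passed it at 0.62 without LTED-A replicate 1 and at 0.60 without LTED-B replicate 2. Of 14 sterol regulators and uptake genes tested, 2 were higher in LTED-A and 0 in LTED-B (median 0.04). The cholesterol exporter ABCA1 was at 19.6, 19.9 and 21.1 CPM against 4.76, 4.53 and 4.58 CPM (2.13, SE 0.06). SREBF1, the transcription factor of lipid synthesis, was at 288 ± 14.2 against 190 ± 6.96 CPM (0.60), and it fell under the fold minimum at 0.56 without LTED-A replicate 3 and at 0.57 without LTED-B replicate 3. SREBF2 (111 against 105 CPM, 0.08) was not DE.

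Of 21 beta-oxidation and ketone genes, 2 were higher in LTED-A and 1 in LTED-B (median -0.01), against 4.06% and 3.00% of all genes tested. OXCT1, which lets cells use ketone bodies, was at 68.1 ± 1.89 against 22.5 ± 0.683 CPM (1.6), with 76.5 CPM in parental cells, and PPARA was at 16.6 against 10.3 CPM (0.68). ACADS, a short-chain dehydrogenase, was higher in LTED-B (14.3 against 6.91 CPM, -1.05). CPT1A (-0.32) and BDH1 (0.07) were not DE.

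Drug and steroid metabolism genes moved in both directions. Of 26 tested, 10 were higher in LTED-A and 3 in LTED-B (median 0.43). The aldo-keto reductases, which reduce ketosteroids, were higher in LTED-A: AKR1C2 was at 14.2, 13.8 and 15.3 CPM against 0.255, 0.422 and 0.394 CPM (5.33, SE 0.14), AKR1C1 at 1.47 against 0.331 CPM (2.15) and AKR1C3 at 0.569 against 0.0798 CPM (2.78). NQO1 (1300 ± 21.2 against 786 ± 35.3 CPM, 0.73), the aryl hydrocarbon receptor gene AHR (241 ± 4.13 against 135 ± 2.73 CPM, 0.84) and its target CYP1B1 (427 ± 1.74 against 216 ± 17.3 CPM, 0.99) were also higher. The glucuronosyltransferases, which conjugate steroids for excretion, went both ways. UGT2B4 was at 127, 128 and 123 CPM in LTED-A, against 590, 585 and 619 CPM in LTED-B (-2.25, SE 0.03), from 0.562 CPM in parental cells, and UGT2B11 was at 3.80 against 9.79 CPM (-1.37). UGT2B10 was at 2.87 against 0.350 CPM (3.03), and UGT2B15 had a log2 fold change of -0.47 and was not DE. The AKR1C and UGT2B genes have close copies, so that their split of reads is uncertain.

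Few proliferation genes were DE. None of 20 mitosis genes (median -0.15) and none of 21 DNA replication and E2F genes (median 0.01) were DE in either direction by edgeR or DESeq2. At an unadjusted p below 0.05, however, 19 of the 20 mitosis genes were lower in LTED-A, by less than the fold minimum, as were 7 of the DNA replication genes, while 6 of these were higher. The lowest mitosis value was that of TOP2A at -0.47 (687 ± 12.6 against 949 ± 18.7 CPM), and MKI67 was at 180 against 221 CPM (-0.30). MCM2 and E2F1 both had a value of 0.04. CCNE1, at 7.70 against 5.22 CPM (0.56), passed the fold minimum at 0.60 without LTED-A replicate 2. Of 15 G1 genes, CDK6 was higher in LTED-A (117 ± 5.26 against 74.4 ± 2.35 CPM, 0.66), the inhibitor CDKN1C was higher in LTED-B (2.19 against 4.84 CPM, -1.14), and the list median was -0.03. Cyclin D1 (CCND1) was at 2531 ± 87.0 CPM in LTED-A, against 3232 ± 102 CPM in LTED-B (-0.35), below the parental 5223 CPM in both. Of 21 replication-dependent histone genes, 1 was higher in LTED-B, H1-5, and all 21 had negative values, with a median of -0.40. Histone genes have near-identical copies and lack long poly(A) tails.

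WNT genes were split evenly. Of 15 tested, 4 were higher in LTED-A and 4 in LTED-B (median 0.01). The feedback inhibitor NKD1 was at 24.6, 24.0 and 25.7 CPM against 3.88, 3.61 and 3.50 CPM (2.75, SE 0.07), and LGR4, a receptor that enhances WNT signalling, at 347 against 227 CPM (0.61). The ligands WNT3 (0.84) and WNT4 (0.61) were higher in LTED-A, and WNT4, at 13.8 ± 0.980 against 8.98 ± 0.471 CPM, fell under the fold minimum at 0.56 without LTED-A replicate 2 and at 0.58 without LTED-B replicate 3. AXIN2, another feedback inhibitor, was higher in LTED-B (4.68 against 7.93 CPM, -0.78), with the transcription factor TCF7 (-0.98) and the ligands WNT9A (-1.03) and WNT11 (-0.60). WNT11 fell under the fold minimum at -0.52 without LTED-A replicate 2 and at -0.53 without LTED-B replicate 1.

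Of 18 hypoxia and glycolysis genes, 5 were higher in LTED-A and 1 in LTED-B (median 0.31), against 4.06% and 3.00% of all genes tested. CA9 was at 3.68 ± 0.333 against 0.762 ± 0.0951 CPM (2.26), the prolyl hydroxylase EGLN3 at 103 ± 1.66 against 41.7 ± 1.72 CPM (1.31), and ADM (1.01), ENO1 (0.65) and VEGFA (0.61) had smaller differences. VEGFA was at 0.58, under the fold minimum, without LTED-B replicate 1. The glucose transporter SLC2A1 went the other way, at 333, 344 and 356 CPM in LTED-A, against 683, 725 and 715 CPM in LTED-B (-1.04, SE 0.03). LDHA was at 597 against 491 CPM (0.28). Of 19 unfolded protein and integrated stress response genes, 3 were higher in LTED-A and 0 in LTED-B (median 0.32). TRIB3, a pseudokinase induced by ATF4 and CHOP, was at 246, 249 and 256 CPM against 74.4, 77.7 and 77.0 CPM (1.71, SE 0.03), followed by the sensor ERN1 (0.74) and the cystine transporter SLC7A11 (0.69). ATF4 (0.34), DDIT3, which encodes CHOP (0.50), and the chaperone HSPA5 (-0.05) were not DE.

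Of 19 STAT3 and cytokine signalling genes, IL4R was higher in LTED-A (0.80), LIFR (-0.96) and SOCS2 (-0.82) were higher in LTED-B, and the median was -0.09. Over all genes tested, 4.06% were higher in LTED-A and 3.00% in LTED-B. STAT3 was at 232 against 178 CPM (0.38) and the gp130 gene IL6ST at 977 against 1374 CPM (-0.49). Of 22 adhesion and epithelial-mesenchymal transition genes, FN1 was higher in LTED-A (73.4 ± 0.661 against 39.3 ± 1.87 CPM, 0.90) and TWIST1 in LTED-B (20.2 ± 0.987 against 35.3 ± 0.711 CPM, -0.81), and the median was 0.05. CDH1, which lobular carcinomas typically lose, was at 11.2 against 11.3 CPM (-0.01). Of 11 keratins tested, 3 were higher in LTED-A and 0 in LTED-B (median 0.52), among them KRT7 at 393 ± 20.4 against 252 ± 2.35 CPM (0.64), with the near-identical hair keratins KRT81 (1.19) and KRT86 (0.62). The KRT86 call was lost without LTED-A replicate 1, LTED-B replicate 1 or LTED-B replicate 2 (adjusted p = 0.00219, 0.00263 and 0.00270). Of 16 BCL2 family and death receptor genes, BCL2, the anti-apoptotic founder of the family and an estrogen receptor target, was higher in LTED-B at 4.85 ± 0.153 against 8.83 ± 0.0824 CPM (-0.87), and the median was -0.19. Both BCL2 levels were far below the parental 91.5 CPM. None of the 13 mitochondrially encoded mRNAs was DE by edgeR or DESeq2 (median -0.04), and 4 were lower in LTED-A at an unadjusted p below 0.05.

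**Figure D5:**
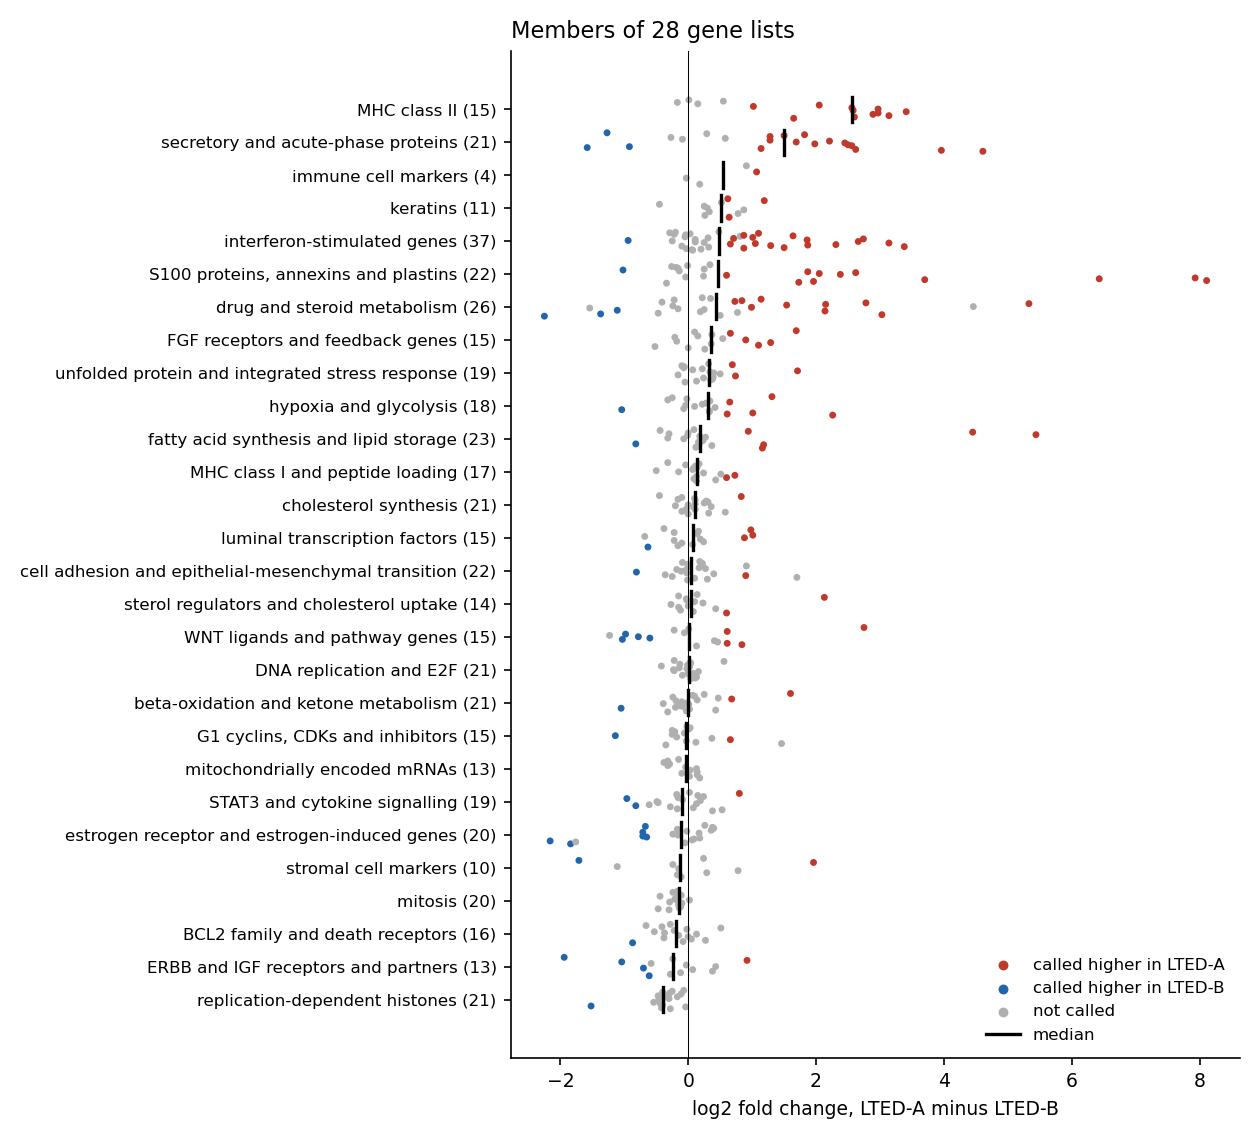
Log2 fold change (LTED-A minus LTED-B, x axis) of each tested member of 28 gene lists, with the number tested in parentheses. Red points are higher in LTED-A, blue points higher in LTED-B, grey points not called, and black bars are medians, from 2.56 for MHC class II to -0.40 for replication-dependent histones.

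In 552 windows of 40 neighbouring expressed genes, the median log2 fold change ran from -0.34 (FAM228B to PPM1G, chromosome 2) to 0.27 (FGFR4 to TRIM41, chromosome 5), and 0 windows lay beyond 0.5 in either direction. Some neighbouring, overlapping windows leaned the same way, and the following were chosen after their values were seen, with no test. On chromosome 2, 5 consecutive windows from FAM110C to EHD3 (chr2:38814-31269451) had medians from -0.34 to -0.25. On chromosome 6, 3 consecutive windows from KDM1B to HLA-F (chr6:18155329-29738528) had medians from -0.29 to -0.25. They include histone genes such as H1-2 and H2BC14, and the part of the histone genes in these medians was not tested. On chromosome 17, the window from IFI35 to DBF4B (chr17:43006740-44752264) held 13 genes higher in LTED-A and 2 higher in LTED-B, and the overlapping window from ETV4 to NSF held 14 and 2. Of all genes tested, 4.06% were higher in LTED-A, but that set also holds genes under the 5 CPM minimum of the windows. Among the genes higher in LTED-A in these windows were EFTUD2, a GTPase of the spliceosome, at 121 against 50.9 CPM (1.24), the mitochondrial carrier gene SLC25A39 at 165 against 73.5 CPM (1.17) and the progranulin gene GRN at 139 against 67.2 CPM (1.05). The window around the class II genes, from DXO to KIFC1, held 11 genes higher in LTED-A and 0 higher in LTED-B.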

How the data were processed

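RNA was sequenced from 15 MM134 libraries (TruSeq stranded total RNA), of which the 6 of LTED-A and LTED-B are compared here. The authors deposited estimated counts per Ensembl gene, made with Salmon 0.6.0 on hg38 and Ensembl release 82 and not normalized. The expected counts were rounded, filtered with filterByExpr by group and scaled by TMM. One edgeR 4.0.16 quasi-likelihood fit (R 4.3.3) held all 15 libraries with 1 mean per group. Tests were two-sided, DE meant a fold change above 1.5 and an adjusted p below 0.001, as in the study, and the SE is the log2 fold change over the square root of F. Below detection means at most 3 counts in each of the group's libraries, and folds against such groups are lower bounds at 3 counts per library.

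Of 60619 genes, 56434 had a GENCODE v44 entry, which gave names and positions. Gene names came from a rule (the 12 largest fold changes and the 6 largest CPM differences per direction, key genes and the 2 leading genes of each of the 28 lists); single list members and the regional genes were added. The members and lists were chosen with earlier results of these data known. Libraries of 1 group differed by more than sampling noise (chi-square per degree of freedom 2.35 to 10.5 in LTED-A and LTED-B). None was thus an exact copy of another, but whether any came from the same RNA cannot be told from this. Depth (42051154 to 101378762 counts per library) limits genes near 3 counts. The steps were tested on simulated data. DESeq2 1.42.0 was an alternative; others are listed in the closing section. Some list members are not reported here by name.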

Additional observations from a re-analysis of the deposited data

How the results depend on the processing

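The number of DE genes, 1839 (1058 higher in LTED-A, 781 in LTED-B), depended on the thresholds: 1000 (615 and 385) at a fold minimum of 2, 5168 (2972 and 2196) with no fold minimum, and 1229 higher in LTED-B at an adjusted p below 0.05. It was 1767 with DESeq2, 1840 with RLE factors, 1667 with LTED-A and LTED-B alone, 1736 after thinning to equal depth, 2015 with no filter and 1568 at 1 CPM or more. Leaving out 1 library gave 1664 to 1747 (963 to 1005 higher in LTED-A, 689 to 743 in LTED-B). With replicate number as a block it was 1779 (1030 and 749), of which 1767 were shared, and VWF (-1.72, adjusted p = 0.00103) was not among them. Deviations of same-numbered libraries correlated at -0.25, 0.01 and -0.15 over 11925 genes, and those of differently numbered ones at -0.15 to 0.24. Whether libraries shared a plate or day cannot be told from this. Over 10 alternatives, 9 of 131 named genes crossed a threshold at least once and 0 changed direction, and each of the 9 is given with its values above.

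Leaving out 1 library, list medians (log2) ranged from -0.27 to -0.20 for ERBB and IGF genes, 0.30 to 0.38 for FGF, 0.10 to 0.15 for MHC class I, -0.15 to 0.04 for STAT3 (positive without LTED-A replicate 1 or LTED-B replicate 3), -0.11 to 0.04 for WNT (negative without LTED-A replicate 2 or LTED-B replicate 1), -0.04 to 0.01 for beta-oxidation (positive without LTED-B replicate 3), 0.05 to 0.08 for adhesion, 0.40 to 0.56 for drug and steroid metabolism, -0.15 to -0.09 for estrogen receptor genes, 0.14 to 0.19 for fatty acid synthesis, 0.26 to 0.30 for hypoxia, 0.23 (without LTED-A replicate 2) to 0.63 for immune markers, 0.30 to 0.65 for interferon-stimulated genes, 0.44 to 0.58 for keratins, 0.03 to 0.09 for luminal factors, -0.19 to 0.19 (without LTED-B replicate 2) for stromal markers and 0.28 to 0.33 for the stress response. The median distance between LTED-A and LTED-B was 51.1 on 5000 genes and 56.2 at a pseudocount of 0.1, against 40.9, and 1 chromosome window passed 0.5 with genes from 1 CPM. The cause of the changes in distance and windows was not tested.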

Other observations

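Protein-coding genes below detection in one variant and at 1 CPM or more in the other included several not described above. ITM2A, a membrane protein gene on chromosome X, had 0 counts in LTED-B and 2.28 CPM in LTED-A, with 2.82 CPM in LTED-D, 0.577 in LTED-E and 0.0215 in parental cells. EPHA6, an ephrin receptor gene, was at 1.09 CPM in LTED-A, against 0.0312 in LTED-B, with 0.566 CPM in LTED-E. PGLYRP4, a peptidoglycan-binding protein gene at the edge of the S100 block, was at 1.14 CPM in LTED-A, 0.0631 in LTED-B and 0 in parental cells. In the other direction, SERP2, a stress-associated endoplasmic reticulum protein gene, was at 2.74 CPM in LTED-B and 0.00331 in LTED-A, with 0.608 CPM in parental cells. TXNRD3, a thioredoxin reductase gene, was at 2.80 CPM in LTED-B and 0.00662 in LTED-A, with 1.73 CPM in LTED-D. The unnamed gene ENSG00000257151, which has no entry in GENCODE v44, had 0 counts in LTED-A, against 1.78 CPM in LTED-B.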
